A study of Mus musculus with 24 samples.

Results

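The tongues of Trex1-KO mice given SN-011 were compared with those of Trex1-KO mice given vehicle. The 6 RNA-Seq libraries, 3 for each group, were chosen by the tissue label Tongue and the sample titles from the 24 of the series. Both groups lacked Trex1, the gene of a DNA exonuclease, in the whole animal (Trex1-/- in the methods text), and no wild-type tongue was analysed here. The methods text gives a C57BL/6J background. SN-011 was injected intraperitoneally. The dose is not settled, since the labels give 5 mg/kg on 3 days a week for 4 weeks, whereas the methods text gives 10 mg/kg daily for 2 weeks to mice 1 month old. The control samples are labelled untreated and are described in the methods text as receiving vehicle, which was Tween 80 at 1% in PBS. The labels do not say that the 3 libraries of a group came from separate mice. The caption of the paper's heatmap of these tissues gives n = 3 per group and does not name the unit. The p-values below measure only the spread between these libraries. Total counts were 15232423 to 17268835 per tongue library. Expression is given as CPM, the read pair count of a gene scaled to a common library size by TMM, a normalization that corrects for library composition. CPM values of the stomach, heart and muscle libraries are instead of total counts, without TMM. Shares and folds of the stomach level set TMM-scaled tongue values against these.

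Cytosolic DNA that TREX1 would degrade is sensed by cGAS, which makes the cyclic dinucleotide cGAMP. The adaptor STING binds cGAMP and drives type I interferon, and interferon then induces antiviral and antigen presentation genes. SN-011 is an antagonist that occupies the cGAMP pocket of STING. The tongue is a striated muscle covered by a keratinised squamous epithelium, with papillae, taste buds and small salivary glands.

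The tissue label was checked against markers of both compartments. The tongue keratins Krt13 and Krt4 and the muscle genes Acta1 and Myh4 were abundant in all 6 libraries. Krt13, the main keratin of non-cornified oral epithelium, was at 3919, 19523 and 30255 CPM in vehicle libraries 1 to 3 and 9026, 10348 and 5191 CPM in SN-011 libraries 1 to 3. Acta1, the skeletal muscle actin, was at 8515, 6988 and 4851 CPM in vehicle libraries 1 to 3 and 6872, 7817 and 8406 CPM in SN-011 libraries 1 to 3. Krt13 was lowest in vehicle library 1 and highest in vehicle libraries 2 and 3. Trex1 was listed at 0 counts in all 24 libraries. Its gene model on GRCm38 (chr9:109057933-109059734) lies wholly inside that of Atrip on the same strand, so read pairs assigned to 1 gene only could be lost there, and the 0 does not check the deletion.

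The vehicle libraries stood apart from each other in ways that the treatment label does not give. Vehicle library 1 held 785 CPM of Xist, the RNA that coats the inactive X chromosome, and only 0.114 CPM of the Y-linked Ddx3y. The other 5 tongue libraries held at most 0.1249 CPM of Xist and 55.5 to 79.2 CPM of Ddx3y. By these genes vehicle library 1 came from a female and the other 5 from males, although the labels give no sex. Only the vehicle group thus mixed the sexes, and the comparison without vehicle library 1 held males only. The part of sex in the values below was not tested. Vehicle libraries 2 and 3 held transcripts of the stomach lining. Gkn1, a secreted protein of gastric pit cells, was at 14.3, 513 and 573 CPM in vehicle libraries 1 to 3 and 3.28, 4.79 and 7.41 CPM in SN-011 libraries 1 to 3. Pgc, the pepsinogen of chief cells, was at 5.34, 1548 and 979.8 CPM in vehicle libraries 1 to 3 and 12.5, 3.88 and 25.3 CPM in SN-011 libraries 1 to 3. A list of 21 gastric genes, chosen after their values were seen, summed to 3.95% and 3.06% of its mean level in the stomach vehicle libraries in vehicle libraries 2 and 3, and to 0.0227% to 0.0716% in the other 4. Both traits were shared by other tissues. Vehicle library 1 of all 4 tissues held 3060 to 13811 Xist counts, against at most 20 in any other library, and the gastric list summed to 3726 and 399 CPM (of total counts) in heart vehicle libraries 2 and 3 and to 966 and 417 CPM in those of muscle, against 12.2 to 71.7 CPM in the other heart and muscle libraries. Calls are therefore also given without vehicle library 1, and most list medians also against it alone.

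With all 6 libraries, 0 of 16587 genes tested (0.0%) passed an adjusted p of 0.05 in edgeR's quasi-likelihood test, and 2074 (12.5%) had an unadjusted p under 0.05, 1216 of them lower (7.33%) and 858 higher (5.17%) with SN-011. Negative log2 fold changes made up 51.5% of the genes tested. The edgeR exact test called 253 genes and DESeq2 called 418. Without vehicle library 1, 756 genes rose (4.41% of 17142 tested) and 1379 fell (8.04%), so the calls below rest on vehicle libraries 2 and 3. In that fit 4942 genes (28.8%) had an unadjusted p under 0.05 and 48.7% had negative values. With library size alone in place of TMM, which moved the median of all genes from 0.01 to 0.13 on the log2 scale, 1407 rose and 1125 fell. Of the 1379 genes that fell, 412 were higher in vehicle library 1 than in every SN-011 library and 490 were lower there than in every SN-011 library. Over the 16587 genes the same shares were 30.6% and 30.2%. Genes that were at least 10 times as abundant in the stomach vehicle libraries as in the SN-011 tongues, and at 10 CPM or more there, made up 228 of the genes that fell, or 16.5%, against 2.63% of the genes tested. When the SN-011 libraries were set against vehicle library 1 alone, 41 of 18073 genes were higher (0.227%) and 105 lower (0.581%) at an adjusted p of 0.05. The lone library is there assumed to vary like the SN-011 libraries.

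Interferon-induced genes lay lower with SN-011, and the medians of the antiviral, GTPase, sensor, transcription factor and chemokine lists were negative with all 6 libraries, without vehicle library 1 and against it alone. In 3 against 3 libraries the smallest 2-sided exact permutation p is 0.1, which every gene whose groups do not overlap reaches. The share of the genes tested in which all SN-011 libraries lay below all vehicle libraries was 8.38%, and that in which they lay above was 9.40%. The first list holds the antiviral effectors, whose proteins block viral replication. Of 48 listed genes, 47 were tested and 45 had a negative log2 fold change, with a median of −0.70 against −0.01 over the genes tested. Without vehicle library 1, 35 of them fell and 0 rose (median −0.84), and in 28 the groups did not overlap over all 6 libraries. Against vehicle library 1 alone the median was −0.34 and 4 passed the test as lower.

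Mx1, a dynamin-like GTPase that traps viral nucleocapsids (GRCm38 chr16:97447035-97462907), was at 92.8, 128 and 116 CPM in vehicle libraries 1 to 3 and 41.8, 46.1 and 41.3 CPM in SN-011 libraries 1 to 3. The 2.61-fold difference of the means (113 ± 18.1 and 43.1 ± 2.65 CPM, SD, n = 3 each) came with no overlap, and vehicle library 1 was the lowest of the vehicle libraries. It gave a log2 fold change −1.39 ± 0.15 (SE), unadjusted p = 3.11e-05 in the fit of 6 libraries by edgeR, and −1.51 ± 0.12 (SE), adjusted p = 9.73e-04 without vehicle library 1. Oasl1, a member of the oligoadenylate synthetase family (chr5:114923240-114937915), was at 106, 139 and 139 CPM in vehicle libraries 1 to 3 and 57.1, 57.3 and 52.4 CPM in SN-011 libraries 1 to 3. Its edgeR values were log2 fold change −1.20 ± 0.14 (SE), unadjusted p = 5.90e-05 with 6 libraries and −1.32 ± 0.11 (SE), adjusted p = 0.00104 with 5. Lgals9, a galectin, was at 153, 291 and 261 CPM with vehicle and 126, 116 and 119.6 CPM with SN-011. Its edgeR log2 fold change in 5 libraries was −1.19 ± 0.12 (SE), adjusted p = 0.00173. Phf11d, a nuclear zinc finger protein, was at 71.1, 127 and 114 CPM with vehicle and 56.2, 54.2 and 60.3 CPM with SN-011. In these 4 genes the SN-011 libraries lay close together, and vehicle library 1 sat between them and vehicle libraries 2 and 3. Mx1, Oasl1, Lgals9 and Phf11d were at 413, 420, 1094 and 120 CPM in the stomach vehicle libraries. The part of stomach transcripts in their values was not tested. The 2 tested antiviral genes without a negative value were Ifitm2 (log2 fold change 0.01) and Slfn9 (0.19), both named after their values were seen.

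Interferon-inducible GTPases, which attack the vacuoles of intracellular pathogens, lay lower as a whole family. All 19 listed genes were tested and 19 had a negative value (median −1.05), 18 with no overlap between the groups, the exception being Gbp11. In 5 libraries 12 fell (median −1.13). Against vehicle library 1 alone the median was −0.77, and 6 passed the test as lower. Gbp5, a guanylate-binding protein that promotes inflammasome assembly, was at 46.01, 90.2 and 52.02 CPM in vehicle libraries 1 to 3 and 23.99, 24.2 and 22.5 CPM in SN-011 libraries 1 to 3. Irgm1, which restrains the other immunity-related GTPases, was at 249, 431 and 316 CPM in vehicle libraries 1 to 3 and 169, 153 and 189 CPM in SN-011 libraries 1 to 3. Ifi47 was at 91.9, 186 and 128 CPM with vehicle and 68.3, 60.9 and 65.2 CPM with SN-011, and Tgtp1 at 25.96, 73.1 and 40.03 CPM with vehicle and 24.1, 20.8 and 23.04 CPM with SN-011. Gbp5 was lower in each SN-011 library than in any vehicle library by a wide gap, whereas vehicle library 1 exceeded the highest SN-011 library in Tgtp1 by little. In 5 libraries the edgeR log2 fold change of Gbp5 was −1.59 ± 0.22 (SE), adjusted p = 0.00507, and that of Irgm1 −1.13 ± 0.16 (SE), adjusted p = 0.00607. The guanylate-binding proteins and the Tgtp pair have near-identical copies, so the split of reads among them is uncertain.

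**Figure D1:**
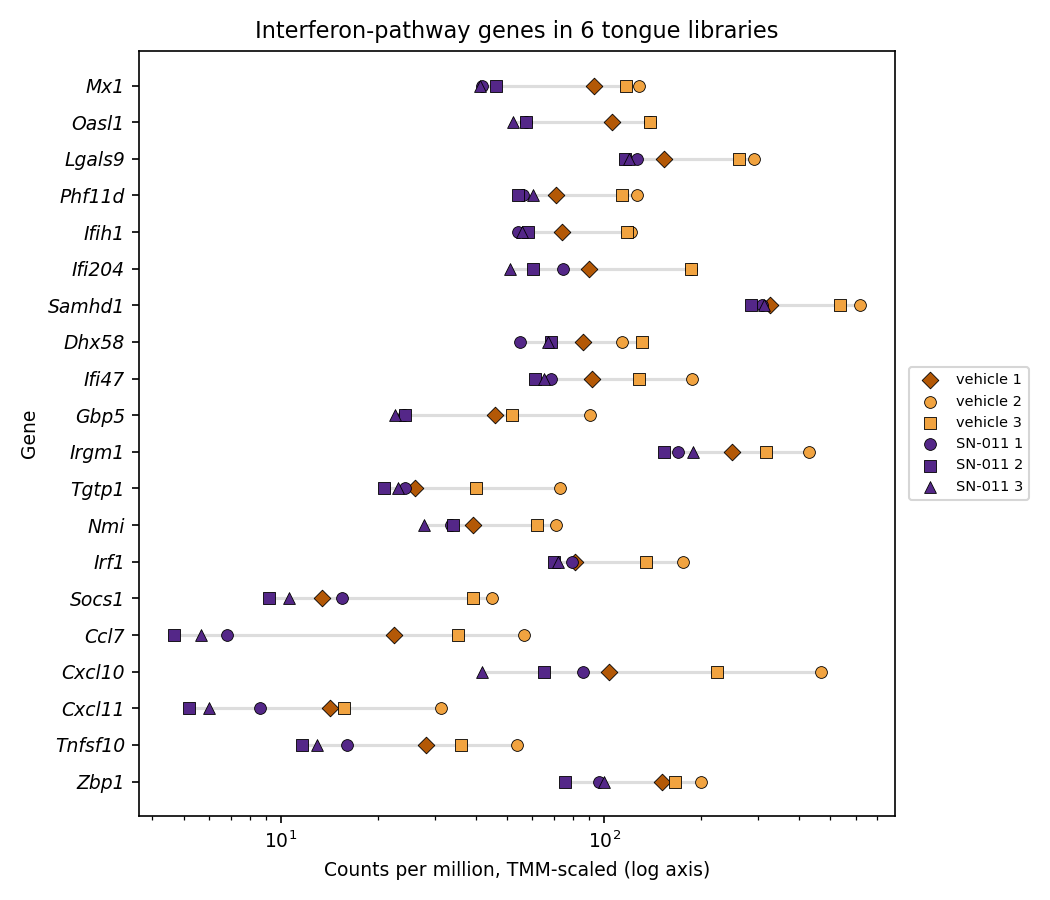
TMM-scaled CPM (log axis) of 20 interferon-pathway genes in each tongue library, 1 row per gene and 1 symbol per library, with a grey line over the range. The SN-011 libraries (purple) lie left of the vehicle libraries in every row but Socs1, and vehicle library 1 (brown diamonds) lies nearest to them in most rows.

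The windows upstream of these genes were read for the letters of the interferon-stimulated response element, the site bound by interferon regulatory factors and their partners. The letters GAAANNGAAA, on either strand, occurred in the 150 bases before the start of 9 of 11 GTPase genes with a RefSeq window (81.8%) and of 16 of 38 antiviral genes (42.1%). They occurred in 499 of 27025 genes with a window (1.85%). A gene with several matches counted once. The following 5 windows are shown because their genes did not overlap between the groups and hold the letters, which are in capitals (RefSeq, GRCm38.p6, 5′ to 3′ on the gene's strand).
Ifit1, chr19:34640739-34640888, plus strand: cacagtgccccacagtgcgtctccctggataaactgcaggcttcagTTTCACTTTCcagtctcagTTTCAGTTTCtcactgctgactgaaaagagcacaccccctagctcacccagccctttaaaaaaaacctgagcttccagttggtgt
Rsad2, chr12:26456453-26456602, minus strand: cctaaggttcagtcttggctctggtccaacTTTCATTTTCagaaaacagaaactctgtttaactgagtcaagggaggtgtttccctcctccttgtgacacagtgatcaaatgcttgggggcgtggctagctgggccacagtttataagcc
Gbp2, chr3:142620513-142620662, plus strand: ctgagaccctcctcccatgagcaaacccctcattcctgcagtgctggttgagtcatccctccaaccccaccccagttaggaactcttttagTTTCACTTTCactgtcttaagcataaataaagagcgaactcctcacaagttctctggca
Irgm1, chr11:48871421-48871570, minus strand: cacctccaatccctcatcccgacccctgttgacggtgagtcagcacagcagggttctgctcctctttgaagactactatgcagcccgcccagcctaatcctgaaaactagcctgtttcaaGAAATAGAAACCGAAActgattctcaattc
Igtp, chr11:58199406-58199555, plus strand: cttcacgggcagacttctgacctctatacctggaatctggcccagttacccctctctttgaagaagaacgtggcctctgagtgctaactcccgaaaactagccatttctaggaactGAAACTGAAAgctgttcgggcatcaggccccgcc
Ifit1, which binds viral RNA lacking a cap methyl group, held 2 such matches and was at 239, 458 and 416 CPM with vehicle and 179.9, 171 and 237 CPM with SN-011. Rsad2, the radical enzyme viperin, held its match on the opposite strand and was at 162, 179 and 168 CPM with vehicle and 87.8, 74.7 and 102 CPM with SN-011. In Irgm1 a pair of matches overlapped close to the start. Gbp2 was at 237, 546 and 239 CPM with vehicle and 180.4, 169 and 139.9 CPM with SN-011, and Igtp at 351, 603 and 323 CPM with vehicle and 207, 189 and 221 CPM with SN-011. For all 5 genes the lowest vehicle library exceeded the highest SN-011 library, by little in Ifit1. The windows of Oasl1, Gbp5, Ifi47 and Cxcl10 did not hold the letters, and the groups did not overlap in these genes either. Ifit1, Rsad2, Gbp2 and Igtp were chosen for their windows after their values were seen.

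The nucleic acid sensors divided. Of 26 listed, 24 were tested and 17 had negative values (median −0.35), and 10 fell and 3 rose once vehicle library 1 was left out. Ifih1, the sensor MDA5 of long double-stranded RNA, was at 74.3, 121 and 118 CPM in vehicle libraries 1 to 3 and 53.96, 58.2 and 55.9 CPM in SN-011 libraries 1 to 3. Ifi204, a DNA-binding member of the p200 family, was at 89.6, 185 and 186 CPM with vehicle and 74.7, 60.2 and 51.3 CPM with SN-011. Samhd1, a dNTP hydrolase, was at 326, 619.8 and 536 CPM with vehicle and 309, 284 and 312 CPM with SN-011, and Dhx58, the helicase LGP2, at 85.95, 114 and 131 CPM with vehicle and 54.8, 68.3 and 66.9 CPM with SN-011. All 4 fell without vehicle library 1, with adjusted p of 0.00201, 0.00206, 0.00495 and 0.00663 in edgeR. The 3 that rose, named after their values were seen, were Irf3 (log2 fold change 0.58), Tlr7 (0.99) and Rnaseh2b (0.56). Neither cGAS nor STING passed the test at the RNA level. Tmem173, the M21 symbol of the gene of STING, was at 15.7, 17.3 and 12.1 CPM in vehicle libraries 1 to 3 and 10.5, 9.58 and 10.6 CPM in SN-011 libraries 1 to 3, with groups that did not overlap and an adjusted p of 0.146 in edgeR without vehicle library 1. Cgas was at 6.02, 8.48 and 7.81 CPM with vehicle and 8.77, 8.09 and 9.403 CPM with SN-011, with overlapping groups.

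Transcription factors, receptors and feedback genes of the interferon response shared the direction. Of 22 tested, 20 had negative values (median −0.43, and −0.25 against vehicle library 1 alone), and 8 fell without vehicle library 1. Irf1, an activator induced by interferon, was at 80.95, 175 and 135 CPM in vehicle libraries 1 to 3 and 79.7, 69.9 and 72.1 CPM in SN-011 libraries 1 to 3. Nmi, an interferon-induced adaptor, was at 39.3, 70.9 and 61.9 CPM with vehicle and 33.5, 34.03 and 27.8 CPM with SN-011. Socs1, the feedback inhibitor of the receptor kinases, was at 13.3, 44.9 and 39.3 CPM with vehicle and 15.5, 9.19 and 10.6 CPM with SN-011. The groups did not overlap in Nmi, Irf1 separated by little, and in Socs1 vehicle library 1 lay below SN-011 library 1. The edgeR log2 fold change of Nmi without vehicle library 1 was −1.06 ± 0.14 (SE), adjusted p = 0.00495.

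Chemokines, which recruit leukocytes along a gradient, lay lower in most cases. Of 33 listed, 24 were tested and 16 had negative values (median −0.69, or −0.60 against vehicle library 1 alone), 10 with no overlap. Of 25 tested without vehicle library 1, 7 fell and 2 rose, the latter being Ccl6 and Ccl9. Ccl7, a monocyte attractant (chr11:82045712-82047525), was at 22.3, 56.4 and 35.4 CPM in vehicle libraries 1 to 3 and 6.804, 4.66 and 5.67 CPM in SN-011 libraries 1 to 3. The lowest vehicle library was thus over 3 times the highest SN-011 library, and the edgeR fits gave a log2 fold change −2.73 ± 0.36 (SE), unadjusted p = 9.88e-05 with 6 libraries and −3.002 ± 0.24 (SE), adjusted p = 9.73e-04 with 5. Cxcl10, a ligand of CXCR3 on activated T cells (chr5:92346638-92348889), was at 103, 467 and 223 CPM in vehicle libraries 1 to 3 and 85.9, 65.3 and 41.97 CPM in SN-011 libraries 1 to 3. Cxcl11, annotated as a polymorphic pseudogene, was at 14.2, 31.3 and 15.6 CPM with vehicle and 8.59, 5.18 and 5.98 CPM with SN-011. Ccl6 went the other way without vehicle library 1 (126, 48.5 and 42.97 CPM with vehicle and 80.3, 98.4 and 94.8 CPM with SN-011; edgeR log2 fold change 0.997 ± 0.14 (SE), adjusted p = 0.00587), but vehicle library 1 was above all the SN-011 libraries.

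Antigen presentation genes had smaller median changes than the antiviral, GTPase and chemokine lists. Of 22 MHC class I pathway genes, 21 had negative values (median −0.35, or −0.26 against vehicle library 1 alone), and 7 fell without vehicle library 1. B2m, the invariant chain of class I, was at 1803, 2618 and 2447 CPM in vehicle libraries 1 to 3 and 1663, 1367 and 1398 CPM in SN-011 libraries 1 to 3. Tapbp, the tapasin that loads peptides, was at 416, 643 and 536 CPM with vehicle and 359, 300.3 and 343 CPM with SN-011. Tapbpl, a related editor, was at 19.9, 36.6 and 26.4 CPM with vehicle and 16.4, 17.5 and 15.9 CPM with SN-011, and the class Ib gene H2-T22 at 674, 973 and 1074 CPM with vehicle and 664, 536 and 598 CPM with SN-011. The groups did not overlap in these 4 genes, although vehicle library 1 and SN-011 library 1 nearly met in H2-T22. Of 11 class II genes tested, 10 had negative values with 6 libraries (median −0.26). In the fit without vehicle library 1, 1 of the 11 fell, beside 8.04% of all genes. It was the class II transactivator Ciita, at 13.7, 25.9 and 17.1 CPM with vehicle and 12.6, 10.1 and 10.2 CPM with SN-011.

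Of 15 genes listed for lytic cell death, in which the plasma membrane ruptures, 14 had negative values (median −0.31, or −0.43 against vehicle library 1 alone) and 6 fell without vehicle library 1. Tnfsf10, the apoptosis-inducing ligand TRAIL, was at 28.01, 53.7 and 35.97 CPM in vehicle libraries 1 to 3 and 15.996, 11.6 and 12.95 CPM in SN-011 libraries 1 to 3. Its edgeR log2 fold change in 5 libraries was −1.72 ± 0.21 (SE), adjusted p = 0.00369. Casp4, the caspase-11 that senses lipopolysaccharide, was at 31.5, 42.6 and 34.9 CPM with vehicle and 23.4, 19.99 and 26.7 CPM with SN-011, and the Z-nucleic acid sensor Zbp1 at 152, 199.8 and 166 CPM with vehicle and 96.5, 75.9 and 99.8 CPM with SN-011. These 3 did not overlap between the groups. Pycard, the inflammasome adaptor ASC, was at 48.9, 114 and 122 CPM with vehicle and 71.4, 61.5 and 53.2 CPM with SN-011, with vehicle library 1 below every SN-011 library.

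NF-kB targets and cytokines were highest in vehicle libraries 2 and 3. Of 27 listed genes, 22 were tested, and 14 fell and 1 rose (Ptgs2, the cyclooxygenase 2 gene) without vehicle library 1 (median −0.71). With all 6 libraries 18 of the 22 had negative values (median −0.63). In 10 the SN-011 libraries lay below all vehicle libraries and in 2 above them, beside 8.38% and 9.40% of all genes. The median was −0.13 against vehicle library 1 alone. Il1rn, the interleukin 1 receptor antagonist, was at 33.8, 88.2 and 124 CPM in vehicle libraries 1 to 3 and 32.2, 25.04 and 23.1 CPM in SN-011 libraries 1 to 3. Il33, an alarmin of epithelial nuclei, was at 10.1, 45.8 and 59.6 CPM in vehicle libraries 1 to 3 and 12.6, 12.5 and 8.03 CPM in SN-011 libraries 1 to 3. Tnfaip2 was at 77.3, 174 and 199.7 CPM with vehicle and 81.9, 74.3 and 57.1 CPM with SN-011, and Bcl3, a nuclear partner of NF-kB, at 11.8, 39.7 and 57.96 CPM with vehicle and 24.2, 16.95 and 11.2 CPM with SN-011. In all 4, vehicle library 1 lay within or next to the SN-011 range. Il33 was at 115 CPM in the stomach vehicle libraries, and the part of the gastric transcripts in its value was not tested.

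Markers of immune cells are given beside the 8.04% of all genes called lower and the 4.41% called higher without vehicle library 1. In bulk tissue, fewer cells of a type and less RNA per cell cannot be told apart. Of 23 T and NK cell genes tested, 2 fell and 0 rose without vehicle library 1, with medians of −0.19 over 6 libraries, −0.34 without vehicle library 1 and 0.23 against it alone. Cd4, the helper T cell co-receptor, was at 15.7, 18.6 and 15.6 CPM in vehicle libraries 1 to 3 and 10.3, 6.21 and 6.91 CPM in SN-011 libraries 1 to 3, with no overlap. Icos, a T cell costimulator, was at 5.11, 14.6 and 10.8 CPM with vehicle and 6.804, 4.66 and 3.61 CPM with SN-011, with vehicle library 1 inside the SN-011 range. The summed level of the list was 244, 404 and 289 CPM in vehicle libraries 1 to 3 and 336, 221 and 258 CPM in SN-011 libraries 1 to 3, and vehicle library 1 was the second lowest. Of 24 macrophage, monocyte and dendritic cell genes tested, 1 fell and 1 rose (Lyve1), and the groups overlapped in all. With 6 libraries 19 of the 24 had negative values (median −0.33). The median was −0.05 without vehicle library 1 and −0.56 against it alone. The B and plasma cell list gave 0 falls in 10 genes tested without vehicle library 1, although 2 of them separated the groups with SN-011 lower and 1 was called lower against vehicle library 1 alone. Ighm, the heavy chain of IgM, was one that separated, at 22.4, 17.7 and 12.2 CPM with vehicle and 10.4, 9.96 and 9.15 CPM with SN-011. Of the list, 15 of 17 members were at least 10 times as abundant in the stomach vehicle libraries. The neutrophil genes S100a8 and S100a9 were at 1.25, 1.55 and 163 and 1.31, 1.81 and 201 CPM in vehicle libraries 1 to 3 and below 3 CPM in every SN-011 library, so the calls of both as lower rest on vehicle library 3. Ly6g, Elane, Camp and Mpo, of the same list, were at 0.114 CPM or less in every library. The neutrophil list summed to 29.1, 43.0 and 396 CPM in vehicle libraries 1 to 3. In SN-011 libraries 1 to 3 it summed to 37.8, 37.8 and 27.3 CPM.

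**Figure D2:**
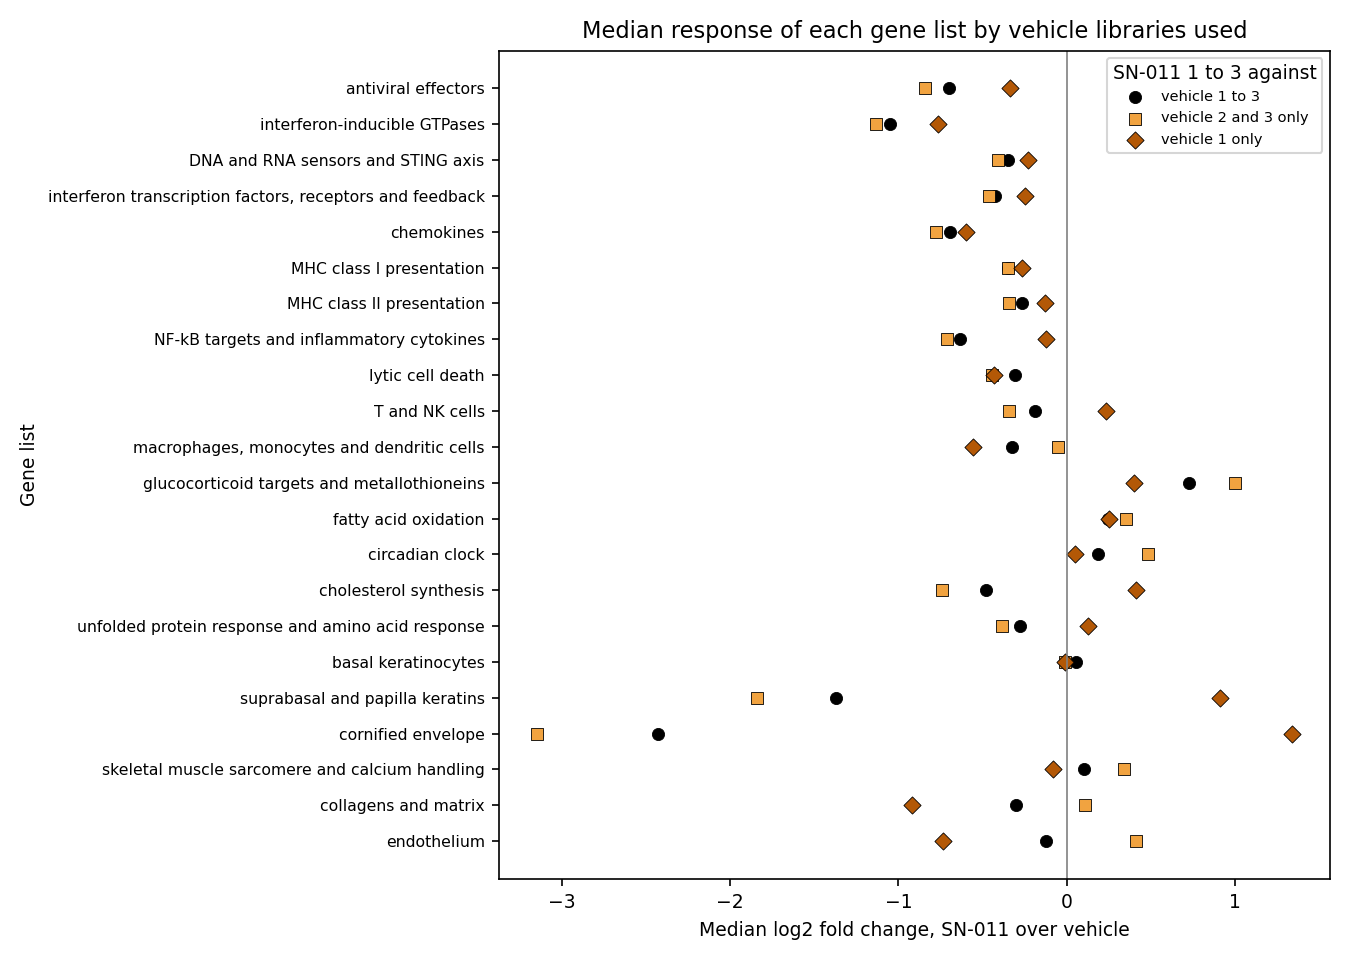
Median log2 fold change (SN-011 over vehicle) of the tested genes of 22 lists, with all vehicle libraries (black circles), vehicle libraries 2 and 3 (orange squares) or vehicle library 1 alone (brown diamonds). The interferon, chemokine and MHC class I lists stay left of 0 with each choice, whereas the cornified envelope goes from −3.15 to 1.34.

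Glucocorticoids act through a nuclear receptor, which raises a known set of genes in muscle and skin. This set lay higher with SN-011. All 22 listed genes were tested and 20 had positive values (median 0.73). Against vehicle library 1 alone the median was 0.40, and 6 of the 22 had negative values. Without vehicle library 1, 11 rose and 1 fell, the latter being Nfkbia. In 9 of the 22 the SN-011 libraries lay above all vehicle libraries. Fkbp5, a co-chaperone of the glucocorticoid receptor, was at 87.996, 31.01 and 25.8 CPM in vehicle libraries 1 to 3 and 115, 144 and 152 CPM in SN-011 libraries 1 to 3. Mt1, a metal-binding metallothionein, was at 758, 592 and 545 CPM in vehicle libraries 1 to 3 and 1140.0, 1139.9 and 1085 CPM in SN-011 libraries 1 to 3. Zbtb16, a transcription factor induced by the hormone, was at 17.4, 9.52 and 8.12 CPM with vehicle and 24.7, 32.996 and 22.7 CPM with SN-011. In these 3 genes each SN-011 library was above each vehicle library, with vehicle library 1 nearest. In 5 libraries the edgeR log2 fold changes were 2.27 ± 0.17 (SE), adjusted p = 7.92e-04 for Fkbp5, and 0.98 ± 0.12 (SE), adjusted p = 0.00416 for Mt1. Sult1a1, a sulfotransferase, was at 70.3, 17.9 and 12.1 CPM with vehicle and 47.4, 75.6 and 67.6 CPM with SN-011, and vehicle library 1 was inside the SN-011 range.

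Regulators of muscle protein breakdown were among the genes that rose. Of 31 atrophy, denervation and regeneration genes tested, 8 rose and 1 fell (Gadd45a) without vehicle library 1. The median was 0.06 with 6 libraries, 0.19 without vehicle library 1 and −0.06 against it alone, and Fbxo32, the atrogin-1 ligase, and Klf15, a glucocorticoid-induced factor, were among those that rose. Trim63, the ubiquitin ligase MuRF1 of the sarcomere, was at 111, 71.7 and 38.3 CPM in vehicle libraries 1 to 3 and 204, 272 and 192 CPM in SN-011 libraries 1 to 3, and Gabarapl1, a component of autophagosomes, at 74.99, 66.7 and 52.1 CPM with vehicle and 106, 126 and 113 CPM with SN-011. Both separated the groups. Foxo1, the transcription factor that drives both, was at 47.04, 22.3 and 18.4 CPM with vehicle and 38.7, 43.02 and 43.4 CPM with SN-011, and Ankrd2, a stretch-responsive ankyrin repeat protein, at 52.6, 17.3 and 13.6 CPM with vehicle and 50.4, 49.6 and 60.5 CPM with SN-011. In Foxo1 and Ankrd2 vehicle library 1 was among or above the SN-011 libraries. The edgeR log2 fold change of Trim63 was 2.02 ± 0.28 (SE), adjusted p = 0.00573 without vehicle library 1.

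Among 28 fatty acid oxidation genes tested, 23 had positive values (median 0.24, or 0.25 against vehicle library 1 alone) and 5 rose without vehicle library 1. Acot1, a cytosolic thioesterase, was at 25.6, 33.7 and 22.98 CPM with vehicle and 49.2, 56.9 and 46.95 CPM with SN-011, and Angptl4, an inhibitor of lipoprotein lipase, at 44.7, 16.1 and 19.9 CPM with vehicle and 44.9, 59.01 and 75.1 CPM with SN-011. Neither overlapped, the latter by the narrowest margin. Ucp3, a mitochondrial carrier of muscle, was at 312, 137 and 75.6 CPM with vehicle and 213, 342 and 329.7 CPM with SN-011, with vehicle library 1 inside the SN-011 range. Of 14 adipocyte genes tested without vehicle library 1, Fabp4, Plin4 and Acacb rose and 0 fell, beside 4.41% and 8.04% of all genes. With 6 libraries 9 of 13 tested had positive values (median 0.23). Fabp4 was at 552, 130.3 and 119 CPM with vehicle and 389.8, 395 and 484 CPM with SN-011, above the SN-011 range in vehicle library 1.

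The circadian clock is a loop of activators and repressors whose RNA levels peak at different hours, and its genes moved in both directions. The median of the 18 tested was 0.19, 0.48 without vehicle library 1, 0.11 without vehicle library 2 and 0.05 against vehicle library 1 alone. Without vehicle library 1, 5 rose (Hlf, Per1, Nfil3 and Cry1 among them) and 2 fell (Nr1d1 and Bhlhe40). Of all genes, 4.41% rose and 8.04% fell in that fit. Over all 6 libraries the groups did not overlap in 4 higher and 1 lower of the 18, beside 9.40% and 8.38% of all genes. Nr1d1, the repressor REV-ERBα, was at 137, 92.6 and 55.02 CPM in vehicle libraries 1 to 3 and 20.1, 19.9 and 15.01 CPM in SN-011 libraries 1 to 3, a 5.18-fold lower mean with SN-011. Nfil3, a repressor of D-box genes, was at 9.71, 9.19 and 16.1 CPM in vehicle libraries 1 to 3 and 28.9, 39.6 and 37.6 CPM in SN-011 libraries 1 to 3. Both separated the groups with all libraries, and against vehicle library 1 alone the edgeR test gave adjusted p of 1.23e-04 and 0.0153. Hlf, an activator of D-box genes, was at 22.95, 5.96 and 6.81 CPM with vehicle and 18.5, 27.4 and 42.3 CPM with SN-011, with vehicle library 1 inside the SN-011 range. The hours at which tissues were collected are not given in the sources used here, and their part in these values was not tested.

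**Figure D3:**
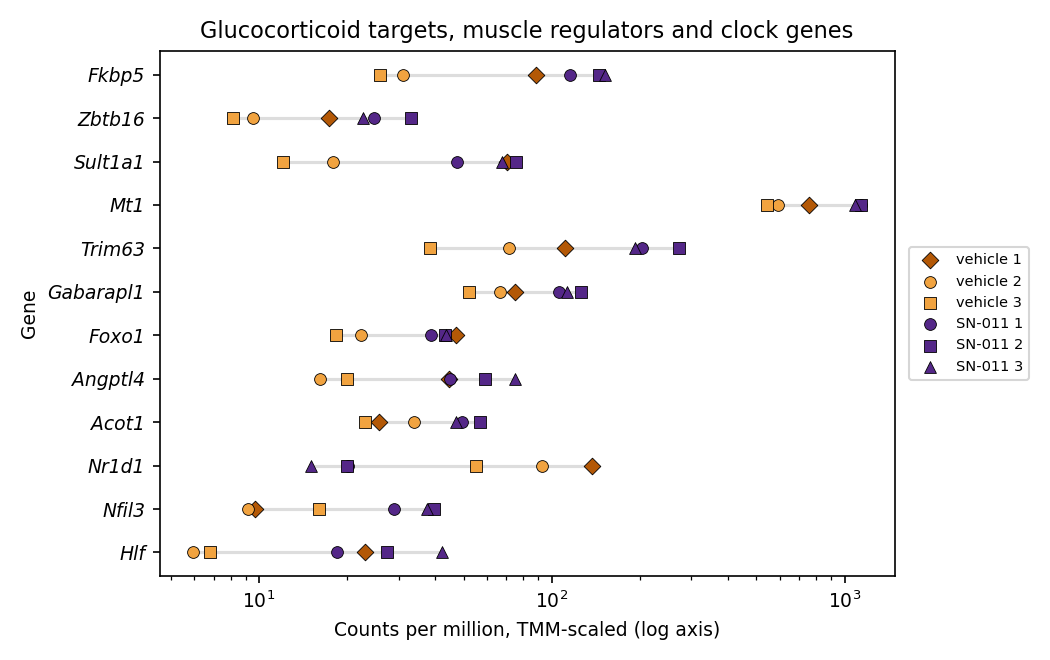
TMM-scaled CPM (log axis) of 12 glucocorticoid targets, muscle regulators and clock genes in each tongue library, 1 row per gene and 1 symbol per library. The SN-011 libraries (purple) lie right of every vehicle library for Fkbp5, Zbtb16, Mt1, Trim63, Gabarapl1, Angptl4, Acot1 and Nfil3, and left of them for Nr1d1.

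Genes of the keratinised surface of the tongue lay on opposite sides of the SN-011 libraries in vehicle library 1 and in vehicle libraries 2 and 3. Of 46 cornified envelope genes tested, which encode the cross-linked shell of dead surface cells, 42 fell (median −3.15). Against vehicle library 1 alone the median was 1.34 and 3 of 45 had negative values. The summed level was 2300.1, 15578 and 27513 CPM in vehicle libraries 1 to 3 and 5828, 5439 and 3113 CPM in SN-011 libraries 1 to 3. Vehicle libraries 2 and 3 were far above the rest, and vehicle library 1 was below every SN-011 library. Kprp, a keratinocyte proline-rich protein, was at 5.91, 98.1 and 146 CPM in vehicle libraries 1 to 3 and 19.9, 14.4 and 16.9 CPM in SN-011 libraries 1 to 3. The late cornified envelope genes Lce1d and Lce1f, which have close copies, were in the same order. Lce1d was at 9.88, 103 and 153 CPM with vehicle and 28.9, 23.6 and 23.8 CPM with SN-011, and Lce1f at 4.204, 94.6 and 164 CPM with vehicle and 15.9, 12.7 and 9.53 CPM with SN-011. Sprr2a2 was at 0.454, 110.3 and 112 CPM with vehicle and 0.537, 0.194 and 0 CPM with SN-011, and at 1492 CPM in the stomach vehicle libraries.

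Suprabasal and papilla keratins showed the same split. Of 23 tested, 16 fell without vehicle library 1 (median −1.84), and the median was 0.91 against vehicle library 1 alone. Krt81, a hair-type keratin, was at 7.39, 96.1 and 125 CPM in vehicle libraries 1 to 3 and 15.3, 10.3 and 7.85 CPM in SN-011 libraries 1 to 3, and Krt10, of cornifying epithelium, at 12.5, 207 and 118 CPM with vehicle and 30.6, 21.3 and 18.8 CPM with SN-011. Both were far higher in vehicle libraries 2 and 3 than in any other library, and at 0.0197 and 23.9 CPM in the stomach vehicle libraries. Krt8 and Krt19, keratins of simple epithelia, were at 3.98, 152 and 121 and 8.01, 125 and 127 CPM in vehicle libraries 1 to 3, at most 9.78 and 10.1 CPM in the SN-011 libraries, and at 4369.9 and 4614 CPM in the stomach vehicle libraries. Basal keratinocyte genes gave 1 fall (Dsg3) and 2 rises (Krt15 and Dst) in 16 tested without vehicle library 1, beside 8.04% and 4.41% of all genes, and a median of −0.01 against vehicle library 1 alone. Dsc3, a desmosomal cadherin, was at 191, 308 and 309.5 CPM with vehicle and 250.4, 215 and 209 CPM with SN-011, with vehicle library 1 below and vehicle libraries 2 and 3 above every SN-011 library. Krt15, of the resting basal layer, was at 1815, 456 and 685 CPM with vehicle and 1166, 1177 and 2195 CPM with SN-011, and vehicle library 1 was inside the SN-011 range.

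**Figure D4:**
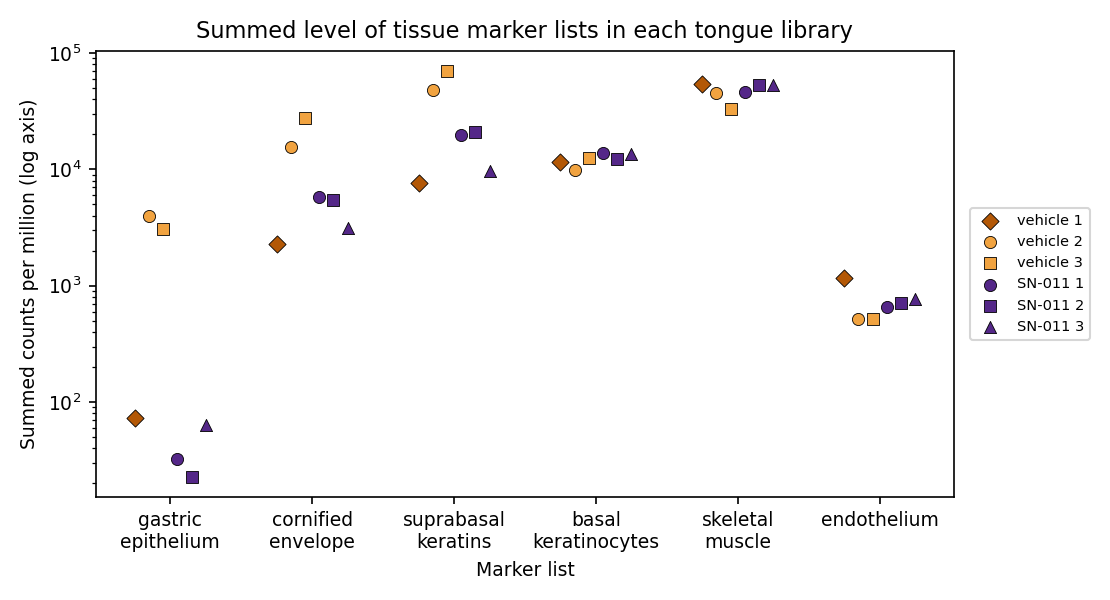
Summed TMM-scaled CPM (log axis) of 6 marker lists in each tongue library, 1 symbol per library. Gastric genes reach 3985 and 3084 CPM in vehicle libraries 2 and 3 and at most 72.3 CPM elsewhere, the cornified envelope is lowest in vehicle library 1, and skeletal muscle and basal keratinocyte sums vary by less than 2 times.

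Among genes with a name of their own, which leaves out predicted gene models such as Gm7993 (log2 fold change −7.48 in the edgeR fit of 5 libraries), the 8 largest falls without vehicle library 1 in genes whose groups did not overlap were Gkn2, Vsig1, Gkn1, Lgals2, Cldn18, Anxa10, Psca and Gsdma2. Each of these 8 was at 642 CPM or more in the stomach vehicle libraries, where Gm7993 was at 31.1 CPM. Gkn2 was at 10.3, 555 and 675 CPM in vehicle libraries 1 to 3 and 1.67, 2.14 and 5.48 CPM in SN-011 libraries 1 to 3, an edgeR log2 fold change of −7.63 ± 0.43 (SE), adjusted p = 1.83e-04, and Psca at 5.62, 210.3 and 236 CPM with vehicle and 2.21, 3.75 and 3.3004 CPM with SN-011. The gastric list above holds high levels in the same libraries, and its part in these values was not tested. The lingual salivary gland list gave 5 falls in 9 genes tested, and its defining genes Muc5b, Muc19, Pip, Bpifa2 and Lipf were at or near 0 in all libraries. Of its 28 members in the files, 8 were at least 10 times as abundant in the stomach vehicle libraries, Tff2, Agr2 and Dmbt1 among them.

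The 8 largest rises chosen in the same way were Doc2b, Greb1, Timp4, Spock2, Tmem82, Agt, Fkbp5 and Cldn15. Doc2b, a calcium sensor of vesicle fusion, was at 3.86, 0.777 and 0.4996 CPM in vehicle libraries 1 to 3 and 7.16, 11.1 and 12.2 CPM in SN-011 libraries 1 to 3, with an edgeR log2 fold change of 3.98 ± 0.41 (SE), adjusted p = 0.00203. Timp4, an inhibitor of matrix metalloproteinases, was at 27.4, 5.96 and 1.87 CPM with vehicle and 32.4, 41.8 and 41.9 CPM with SN-011, and the matrix proteoglycan gene Spock2 at 18.5, 3.37 and 2.75 CPM with vehicle and 23.99, 34.7 and 29.8 CPM with SN-011. Greb1, known as an oestrogen-regulated gene, was at 1.48, 0.324 and 0.4996 CPM with vehicle and 2.39, 4.3995 and 9.53 CPM with SN-011, the membrane protein gene Tmem82 at 17.04, 5.18 and 3.19 CPM with vehicle and 22.1, 35.5 and 24.04 CPM with SN-011, and the claudin gene Cldn15 at 4.26, 2.07 and 1.37 CPM with vehicle and 5.61, 7.12 and 10.2 CPM with SN-011. In these genes vehicle library 1 lay between the other vehicle libraries and the SN-011 libraries, and the 6-library log2 fold changes were smaller, at 1.71 for Timp4 and 2.55 for Doc2b. Agt, the angiotensin precursor, was at 10.6, 4.79 and 11.7 CPM in vehicle libraries 1 to 3 and 38.4, 72.7 and 50.005 CPM in SN-011 libraries 1 to 3, and here vehicle library 1 was not closer to the SN-011 libraries than vehicle library 3 was.

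The smallest unadjusted p with all 6 libraries, among genes whose groups did not overlap, belonged to Gm7993, Mx1, Oasl1, Ky and Ccl7 for lower, and Enkd1, Clec11a, Agt and Lrrc30 were among those for higher. Gm7993 (chr5:95974240-95975623), annotated as a processed pseudogene, was at 15.3, 16.6 and 37.97 CPM in vehicle libraries 1 to 3 and 0.298, 0.0647 and 0.0623 CPM in SN-011 libraries 1 to 3. Reads of a processed pseudogene can be shared with its parent gene, so this value is uncertain. Ky, a sarcomeric protein required for muscle growth, was at 36.1, 48.2 and 44.9 CPM in vehicle libraries 1 to 3 and 17.1, 12.1 and 16.7 CPM in SN-011 libraries 1 to 3, an edgeR log2 fold change −1.49 ± 0.19 (SE), unadjusted p = 8.79e-05. Lrrc30, a leucine-rich repeat gene, was at 69.4, 36.6 and 37.7 CPM in vehicle libraries 1 to 3 and 141, 169 and 152 CPM in SN-011 libraries 1 to 3. Clec11a, a secreted growth factor of bone and blood progenitors, was at 7.499, 4.53 and 6.56 CPM with vehicle and 18.8, 21.6 and 31.6 CPM with SN-011, and the ciliary gene Enkd1 at 11.3, 9.71 and 10.7 CPM with vehicle and 21.5, 20.6 and 22.5 CPM with SN-011. Vehicle library 1 was the highest of the vehicle libraries in Clec11a, Enkd1 and Lrrc30, and the lowest in Ky and Gm7993, and in each it stayed apart from the SN-011 libraries.

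Sterol and unfolded protein genes were likewise highest in vehicle libraries 2 and 3. Of 24 cholesterol synthesis genes tested, 10 fell without vehicle library 1 (median −0.74), and the median was 0.41 against vehicle library 1 alone. Sqle, the squalene epoxidase, was at 9.66, 41.9 and 75.5 CPM in vehicle libraries 1 to 3 and 21.4, 17.7 and 7.16 CPM in SN-011 libraries 1 to 3, and Cyp51, the lanosterol demethylase, at 16.4, 101 and 165 CPM with vehicle and 46.9, 49.3 and 18.9 CPM with SN-011. Sc5d, of a late step, also fell. Of 25 genes of the unfolded protein and amino acid responses, 7 fell (median −0.38, but 0.13 against vehicle library 1 alone), among them Xbp1 (82.5, 157 and 184 CPM with vehicle and 86.2, 78.9 and 73.7 CPM with SN-011), Slc7a11, Asns and the chaperone gene Hspa5. The summed cornified envelope level was likewise lowest in vehicle library 1 and highest in vehicle library 3 of the vehicle libraries, whereas the summed gastric level was highest in vehicle library 2, and the part of either was not tested.

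Of 34 sarcomere and calcium handling genes tested, 3 rose and 0 fell without vehicle library 1, beside 4.41% and 8.04% of all genes. Those that rose were Tnni2, Mylk2 and Tnnt3. The medians were 0.34 in that fit and −0.08 against vehicle library 1 alone. Tnni2, the fast troponin I, was at 4086, 2323 and 2152 CPM in vehicle libraries 1 to 3 and 3348, 4083 and 4422 CPM in SN-011 libraries 1 to 3, and vehicle library 1 was inside the SN-011 range. Of 39 collagen and matrix genes, 3 rose (Eln, Lox, Ccn2) and 0 fell without vehicle library 1, beside 4.41% and 8.04% of all genes. With all 6 libraries 32 of the 39 had negative values (median −0.30). In 6 the SN-011 libraries lay below all vehicle libraries, and in 0 above them. The median against vehicle library 1 alone was −0.92. Col6a3 was at 25.2, 20.003 and 15.2 CPM with vehicle and 10.1, 8.54 and 12.3 CPM with SN-011, with no overlap, and Eln, the elastin gene, at 86.5, 24.02 and 23.1 CPM with vehicle and 66.5, 62.3 and 48.3 CPM with SN-011, with vehicle library 1 the highest. Of 20 endothelial genes, 6 rose and 2 fell (Kdr and Icam1) without vehicle library 1, beside 4.41% and 8.04% of all genes. With all 6 libraries 12 of 19 tested had negative values (median −0.12). In 3 of these 19 the SN-011 libraries lay below all vehicle libraries, and in 0 above them. The median against vehicle library 1 alone was −0.73. Flt1, a receptor of VEGF, was at 60.6, 20.6 and 22.4 CPM with vehicle and 37.7, 48.98 and 49.9 CPM with SN-011, and Eng and Egfl7 were also highest in vehicle library 1. Of 36 cell cycle genes, 3 rose without vehicle library 1 and 1 fell, beside 4.41% and 8.04% of all genes. With all 6 libraries 9 were higher and 2 lower with no overlap between the groups (9.40% and 8.38% of all genes), 12 were higher and 5 lower at an unadjusted p under 0.05 in edgeR (5.17% and 7.33% of all genes), and 0 passed the adjusted test. The median was 0.04. E2f1, which starts S phase, was at 13.5, 8.29 and 13.5 CPM with vehicle and 25.1, 22.97 and 21.9 CPM with SN-011, with Cdt1 and Uhrf1 in the same direction, and Ccnb2, a mitotic cyclin, was at 30.1, 28.7 and 39.7 CPM with vehicle and 23.1, 21.4 and 17.1 CPM with SN-011.

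The tongue response was set against the mean response of heart, stomach and muscle in a joint edgeR fit of 24 libraries. Of 19731 genes tested, 0 (0.0%) differed at an adjusted p of 0.05, and 875 (4.43%) had an unadjusted p under 0.05. The median log2 fold change of the antiviral effectors was −0.70 in the tongue, −0.47 in the heart, −1.03 in the stomach and −0.75 in the muscle. The glucocorticoid list had medians of 0.73, 0.98, 1.14 and 1.17 in the same order. The cell cycle list had medians of 0.04, −0.70, −0.85 and −0.95, and 14 of its 36 genes had an unadjusted p under 0.05 for the difference, beside 4.43% of all genes. Of the antiviral and glucocorticoid lists, 0 of 47 and 2 of 22 genes did so. Muscle SN-011 library 2 held 11546 genes with counts, against 19798 to 21387 in the other muscle libraries. Its part in the muscle medians was not tested. The joint fit takes the 24 libraries as independent. The methods text describes several tissues collected from the treated mice, and Xist marks the same library number in each tissue, so the 24 libraries may share mice although the labels do not link them. With the library number within a treatment as a block across tissues, an alternative chosen after seeing the data, edgeR called 0 genes and 768 (3.89%) had an unadjusted p under 0.05, among them 14 of the 36 cell cycle, 1 of the 47 antiviral and 4 of the 22 glucocorticoid genes. Without vehicle library 1 of every tissue, 31 genes (0.153%) had a lower response in the tongue and 0 a higher one, and with the block 18 were lower and 1 higher. The 31 included Hmox1, the haem oxygenase, at −1.74 in the tongue against 0.05, 0.62 and 1.96 in heart, stomach and muscle, and Ide, the insulin-degrading enzyme, at −2.31 against −0.91, −1.24 and −0.998. Both were named after their values were seen, and gastric transcripts were present in vehicle libraries 2 and 3 of the tongue, heart and muscle, at unequal levels, and their part was not tested.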

How the data were processed

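RNA from tongue was sequenced from polyA+ RNA in 6 of 24 libraries, named by their titles. The deposited raw counts per gene were made by the authors with HISAT2 on mm10 and HTSeq per the labels, whereas the methods text names Trimmomatic and featureCounts. Versions and the annotation are not given in the sources used here. Identifiers were matched to GENCODE M21. Genes were kept by filterByExpr (minimum count 10, total 15), scaled by TMM and tested with edgeR 4.0.16 (quasi-likelihood, Benjamini-Hochberg threshold 0.05) for all 6 libraries and without vehicle library 1. The tongue response was set against that of the other tissues by an interaction in 1 fit of all libraries. Tongue depth was 15232423 to 17268835 counts, at which 3 counts are 0.174 to 0.197 CPM. DESeq2 1.42.0, the edgeR exact test, other scalings, filters and left-out libraries were alternatives. The script was tested on simulated data.

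The members and gene lists were chosen with earlier results of these data known. Genes were named by rule: the 5 smallest p values each way over 6 libraries among non-overlapping genes at 1 CPM or more, the 8 largest changes each way over 5 libraries at 5 CPM or more (Gm, Rik and -ps models left out), up to 4 smallest p values per list, and Trex1, Sting1, Cgas and sex-linked genes. Others were named after their values were seen, and some genes that the rule names are not reported here. No 2 tongue libraries of 1 group agreed within sampling noise (chi-square of counts). Symbols and promoter windows come from RefSeq (GRCm38.p6) and GENCODE.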

Additional observations from a re-analysis of the deposited data

How the results depend on the processing

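Of 129 named genes followed over 14 alternatives, 6 changed sign in at least 1 of them. With all 6 libraries edgeR's quasi-likelihood test called 0 genes. DESeq2 called 418 and the edgeR exact test 253, 18 genes were called with no filter, and against vehicle library 1 alone 146 were called. Leaving out each library in turn gave 0 to 2135 calls, and the upper value is without vehicle library 1. The replicate numbers did not pair the samples (correlations of deviations −0.43, −0.04 and −0.46, with 0 of 3 SN-011 libraries closest to their own number), and with the replicate block 0 genes were called and 1136 had an unadjusted p under 0.05. Among 5 libraries 2135 genes were called, 3312 without the filter, 3160 by DESeq2, and 780 (without SN-011 library 2) to 1849 (without vehicle library 2) with a further library left out. Without SN-011 library 3 it was 1093 and without vehicle library 3 it was 1281. Leaving out stomach-enriched genes gave 1904. The tongue differed from the other tissues in 0 genes, in 4 without the filter and in 31 without vehicle library 1 of every tissue, or 19 there with the replicate block across tissues.

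The list medians against vehicle library 1 alone, an alternative chosen after seeing the data, were −0.28 for M7core (the cGAS-STING module, −0.51 with 6 libraries), −0.34 for antiviral effectors, −0.23 for sensors, −0.25 for transcription factors, −0.26 for MHC class I, −0.13 for NF-kB targets, 0.91 for suprabasal keratins and 1.34 for the cornified envelope. The last 2 turned positive. Library size alone gave −0.26 for sensors, and no filter −0.95 for chemokines. With each library left out, the medians ranged from −1.13 to −0.66 for GTPases, from −0.51 to −0.35 for sensors and from −0.89 to −0.60 for chemokines. The ranges of the genes that changed sign were −0.0710 to 0.76 for Eng, −0.13 to 1.03 for Ccn2, −0.00851 to 1.06 for Lox, −0.00683 to 1.32 for Lyve1, −5.84 to 0.19 for S100a8 and −0.0137 to 0.38 for Acta1. Against vehicle library 1 alone, 44 of the 129 named genes had the opposite sign to the fit of 6 libraries and 16 passed the test. The cause of these shifts was not tested. Differences under the floor of 3 counts were not detectable at this depth.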

Other observations

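Of 33 immediate early and heat shock genes tested without vehicle library 1, 5 fell and 0 rose, beside 8.04% and 4.41% of all genes. Klf4, a factor of differentiating epithelium, was at 172, 399 and 579 CPM in vehicle libraries 1 to 3 and 239.6, 191 and 156 CPM in SN-011 libraries 1 to 3, and Junb, an AP-1 subunit, at 95.4, 199 and 306 CPM with vehicle and 169, 136 and 129 CPM with SN-011. Egr3, an immediate early factor, was at 1.59, 3.37 and 6.31 CPM with vehicle and 1.07, 0.841 and 1.18 CPM with SN-011. Of 23 p53 and oxidative stress targets, 4 fell and 2 rose without vehicle library 1, beside the same shares of all genes (8.04% and 4.41%). Over 6 libraries 13 of them had negative and 10 positive values (median −0.005). Hmox1, the haem oxygenase, was at 31.1, 56.6 and 98.1 CPM with vehicle and 26.9, 23.2 and 19.9 CPM with SN-011. The glutathione enzyme genes Gsta1 and Gpx2 were among those that fell without vehicle library 1. Gpx2 was at 89.6, 298 and 434 CPM with vehicle and 162, 152 and 101 CPM with SN-011, with vehicle library 1 below every SN-011 library.

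Smaller cell populations were read from their lists. The mast cell list summed to 73.2, 38.8 and 29.98 CPM in vehicle libraries 1 to 3 and 27.2, 22.5 and 26.5 CPM in SN-011 libraries 1 to 3, and 0 of 5 genes tested fell without vehicle library 1 in edgeR. All 5 had a negative log2 fold change with 6 libraries (median −1.74), and 1 was called lower against vehicle library 1 alone. It was Mcpt4, a mast cell protease gene, at 17.8, 3.496 and 2.25 CPM with vehicle and 1.37, 2.07 and 0.187 CPM with SN-011, with no overlap and an edgeR log2 fold change against that library of −3.87 ± 0.65 (SE), adjusted p = 0.0346. The erythroid list summed to 895, 152 and 191 CPM in vehicle libraries 1 to 3 and 2434, 401 and 595 CPM in SN-011 libraries 1 to 3, with SN-011 library 1 the highest and vehicle library 1 next. All 7 genes tested were lower in vehicle libraries 2 and 3 than in every SN-011 library, 3 rose without vehicle library 1, and the groups overlapped in all 7 over 6 libraries. Of 10 taste cell genes tested without vehicle library 1, 1 fell and 1 rose, beside 8.04% and 4.41% of all genes. Trpm5, the cation channel of taste receptor cells, fell and Car4, the carbonic anhydrase of sour-sensing cells, rose. Trpm5 was at 0.227, 2.85 and 1.69 CPM with vehicle and 0.298, 0.388 and 0.311 CPM with SN-011, and at 20.9 CPM in the stomach vehicle libraries, and its levels moved with the gastric transcripts of vehicle libraries 2 and 3, whose part was not tested. Car4 was at 27.7, 5.63 and 4.497 CPM with vehicle and 12.4, 27.04 and 22.98 CPM with SN-011. The summed taste list differed little, at 180.0, 169.5 and 209 CPM in vehicle libraries 1 to 3 and 180.4, 202 and 179.8 CPM in SN-011 libraries 1 to 3. Of 82 oxidative phosphorylation subunits tested, 15 rose and 1 fell (Ndufa4l2) without vehicle library 1, beside 4.41% and 8.04% of all genes. The medians were 0.27 there and −0.07 against vehicle library 1 alone. With all 6 libraries 67 of the 82 had positive values (median 0.13). In 4 the SN-011 libraries lay above all vehicle libraries, beside 9.40% of all genes, and in 0 below them. Vehicle library 1 lay above every SN-011 library in 37.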
